A study of Homo sapiens with 10 samples.

Results

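The 10 genes described here are NF-kB targets and chemokines, namely IL8, CXCL1, CXCL2, CCL20, NFKBIA, TNFAIP3, ICAM1, NFKB1, NFKB2 and RELB. They were chosen by name from the 32738 genes of the count table, in which CXCL8 carries its older symbol IL8. All 10 were found. A minimum on low counts left 12733 genes to test, 7 members among them, while IL8, CXCL1 and CXCL2 stayed below it and are given as counts.

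HepG2, an established human hepatoma line, was either kept in regular growth medium (untreated) or given medium with 2 µg/ml tunicamycin, and both groups were harvested after 17 h. Tunicamycin blocks the first step of N-linked protein glycosylation and thereby causes endoplasmic reticulum (ER) stress. Each group held 5 libraries of mRNA 3′ ends, from 5 replicate experiments performed on separate days. Libraries with the same replicate number were taken as the same experiment, which the sample titles do not state. The libraries came from a single cell line without any genetic change, so the p-values cover repeat experiments on these cells and not other cells or donors.

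NF-kB is a family of dimeric transcription factors held in the cytoplasm by IkB proteins. In the canonical arm, receptors such as those of IL-1 and TNF activate the IKK complex, which marks IkB for destruction and frees the dimers, while in the non-canonical arm IKK alpha drives the processing of the NFKB2 precursor and releases RELB dimers. Targets include chemokines that attract leukocytes and, as negative feedback, NFKBIA and TNFAIP3. In hepatocytes the pathway is known for the acute phase response and for protection from TNF-induced death.

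The promoters of the members were read from RefSeq on GRCh38.p14, covering 250 bases before to 50 bases after each transcription start. The members were chosen by name as NF-kB targets, so a high share with NF-kB motifs may follow from that choice. The table held 12 promoters of 9 members, and RELB is named only. The NF-kB consensus, searched on both strands, is GGG, a purine, any base, A or T, a pair of pyrimidines and CC. It was found in 7 of the 9 members, against 7.09% of the 27305 genes in the table and 5.91% of its 35116 promoters. The exceptions were CXCL8 and ICAM1. A shorter pattern, GGNNNTTCC, overlaps the consensus and was chosen after the sequences had been seen. It was found in 9 of 9 members and in 23.5% of genes (20.1% of promoters). The AP-1 pattern TGANTCA was found in CXCL8 only, at 137 to 131 bases before the start, against 9.37% of genes. The C/EBP-ATF composite TGATGNAAN was found in 0 of 9, against 4.45% of genes. These matches describe letters in a window and do not show that a factor was bound.

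The stretch before the CCL20 start is shown because CCL20 gave the largest change among the members. It covers bases 150 to 1 before the RefSeq start at chr2:227813692-227813841 on the plus strand, and lies within the longer GENCODE span of the gene. Capitals mark the shorter pattern, which reads on the minus strand at 79 to 71 bases before the start.
CCL20: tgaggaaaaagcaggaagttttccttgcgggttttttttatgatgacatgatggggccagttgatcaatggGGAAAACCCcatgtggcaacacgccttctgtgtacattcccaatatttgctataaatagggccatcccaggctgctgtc

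Windows of 30 bases around 1 match to the shorter pattern are printed for each of the other 8 members. The pattern picked these sites, so their likeness follows from that choice and was not compared with the changes in counts. Each window is written in the direction of its gene, with the match in capitals. They lie at chr4:73740468-73740497 for CXCL8 (plus strand), chr4:73869305-73869334 for CXCL1 (plus), chr4:74099253-74099282 for CXCL2 (minus), chr14:35404811-35404840 for NFKBIA (minus), chr6:137867194-137867223 for TNFAIP3 (plus), chr19:10270924-10270953 for ICAM1 (plus), chr4:102501301-102501330 for NFKB1 (plus) and chr10:102394461-102394490 for NFKB2 (plus).
CXCL8: tgcaaatcgtGGAATTTCCtctgacataat
CXCL1: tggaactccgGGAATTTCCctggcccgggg
CXCL2: tggagctccgGGAATTTCCctggcccggga
NFKBIA: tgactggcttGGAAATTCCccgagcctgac
TNFAIP3: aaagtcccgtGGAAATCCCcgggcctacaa
ICAM1: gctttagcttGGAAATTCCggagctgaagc
NFKB1: gacgtcagtgGGAATTTCCagccaggaagt
NFKB2: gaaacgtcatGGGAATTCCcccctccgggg

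Total counts ran from 4242538 to 4888292 in the untreated and from 2234682 to 5029864 in the tunicamycin libraries, with tunicamycin libraries 5 and 4 the shallowest. The ER stress targets HERPUD1 and DDIT3 rose by log2 2.78 ± 0.11 (SE) and 1.42 ± 0.11. All 9 hepatocyte markers were detected, with summed levels of 65293 to 84033 normalized counts in the untreated and 52238 to 58674 in the tunicamycin libraries. APOB, with means of 32551 and 18979, gave the largest part of these sums. Of the 9 markers, 5 fell (edgeR adjusted p under 0.05), where 16.6% of all genes tested fell. The other 4, ALB, AFP, SERPINA1 and HNF4A, were not called. Of 11 leukocyte markers, 6 were at 0 in all 10 libraries, and the sum without LYZ and CD68, set aside after their values were seen, was 0 to 5.08 and 0 to 2.53. LYZ was at 1346 ± 201 normalized counts in the untreated and 1694 ± 324 in the tunicamycin libraries (SD, n = 5), higher in 5 of 5 experiments (edgeR adjusted p = 0.0524), and CD68 was at 27.8 ± 7.35 and 15.6 ± 6.61 (edgeR adjusted p = 0.0319). Of 3 endothelial markers, CDH5 had 18 counts in tunicamycin library 4 and 0 elsewhere. Stromal markers other than ACTA2, also set aside after its values were seen, summed to 0 to 3.05 and 0 to 4.72. ACTA2 was at 138 ± 26.6 normalized counts in the untreated and 106 ± 44.2 in the tunicamycin libraries (SD, n = 5, edgeR adjusted p = 0.169).

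Normalized counts below are counts scaled by TMM to the mean effective library size. Because a transcript gives about 1 fragment at its 3′ end, they were not divided by gene length. All changes are tunicamycin against untreated on the log2 scale with their SE, and adjusted p-values are from edgeR's quasi-likelihood test over all 12733 genes. Of the 7 members tested, CCL20 and RELB rose and TNFAIP3 fell. This was 3 of 7, where 34.2% of all genes tested were called (17.6% higher and 16.6% lower), so the share of members that changed was near that of all genes. The members' median change was -0.20, against -0.00335 for all genes tested. In these bulk libraries, fewer cells that express a gene and less RNA per cell cannot be told apart.

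**Figure D1:**
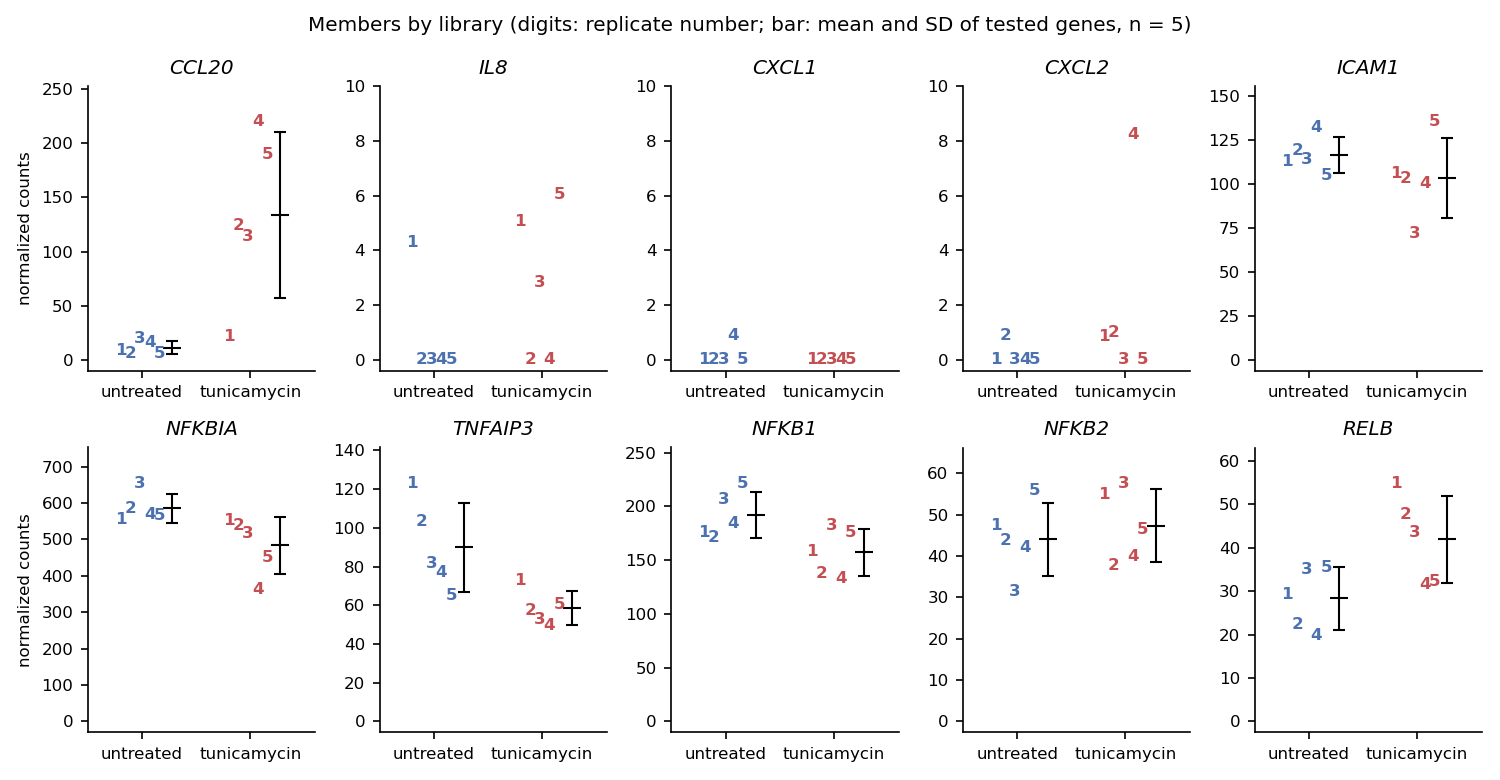
Normalized counts (y axis) of the 10 members in each of the 5 untreated and 5 tunicamycin libraries, each drawn as its replicate number, with bars for the mean and SD of the tested genes (n = 5). CCL20 reached at most 20.1 in untreated cells and 220 with tunicamycin, where library 1 was far below the other 4.

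Among the chemokines, CCL20 (ENSG00000115009), the ligand of CCR6 that draws dendritic cells and T helper 17 cells, rose 11.1-fold. The gene lies at chr2:227805739-227817564 on GRCh38. Its normalized counts in untreated libraries 1 to 5 were 8.61, 6.24, 20.1, 16.1 and 6.10, and in tunicamycin libraries 1 to 5 they were 22.0, 124, 114, 220 and 190. All tunicamycin libraries lay above all untreated libraries, but library 1 stood just above the highest untreated value and far below the other 4. The means were 11.4 ± 6.34 and 134 ± 76.7 (SD, n = 5 each), and without tunicamycin library 1 its group mean was 162 ± 51.1 (SD, n = 4).

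The change of CCL20 was 3.47 ± 0.47 (95% interval 2.50 to 4.45, adjusted p = 1.18e-05 by edgeR), which ranked at percentile 99.8 of all genes tested. It was higher in 5 of 5 experiments, by 1.30 in the first, 4.21, 2.48 and 3.73 in the next ones and 4.85 in the fifth. A two-sided exact permutation test of the normalized counts gave p = 0.00794, the smallest that 5 against 5 allows. Groups that did not overlap were also found for 23.5% of all genes tested.

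The treatment genes gave no common order beside the spread of CCL20 among tunicamycin libraries. In tunicamycin library 1 HERPUD1 was at 677 normalized counts, the lowest of its group, which otherwise ran from 807 to 986. HSPA5, the ER chaperone BiP, was at 72113 there, the highest of its group. DDIT3 was at 446 in library 1, within its group's range, and lowest at 346 in library 4, where CCL20 was highest. Libraries 4 and 5, with the highest CCL20, had the lowest totals, and without both the change was 2.90 (adjusted p = 0.000144 by edgeR). The part of stress strength, depth or the leukocyte markers LYZ and CD68 in the spread was not tested.

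A ratio within a library does not depend on scaling, but it moves with both genes. NFKBIA itself was lower in tunicamycin libraries 4 and 5 (361 and 450 normalized counts, against 554 to 654 untreated), which raises the ratio there. Per 100 counts of NFKBIA, CCL20 had 1.55, 1.07, 3.07, 2.84 and 1.08 counts in the untreated libraries and 3.97, 23.0, 22.2, 60.8 and 42.2 in the tunicamycin libraries. The 2 ranges did not overlap, with means of 1.92 ± 0.968 and 30.4 ± 21.7 (SD, n = 5, exact permutation p = 0.00794).

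The other chemokines among the members were close to undetected. IL8 (CXCL8, ENSG00000169429, chr4:73740519-73743716), which attracts neutrophils, had 5, 0, 0, 0 and 0 counts in the untreated and 6, 0, 3, 0 and 3 counts in the tunicamycin libraries. This gave 0.213 CPM (exact Poisson 95% interval 0.0693 to 0.498) over 23438527 untreated counts and 0.600 CPM (0.310 to 1.05) over 20000606 tunicamycin counts. CPM are a group's counts of the gene scaled to a total of 1000000 counts. The intervals cover counting error only and overlap, which is not a test of a difference. In the fit without the filter IL8 was not called (edgeR adjusted p = 0.316). The counts of experiment 1 were alike, 5 and 6.

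CXCL1 (ENSG00000163739, chr4:73869393-73871308), another neutrophil chemokine, had 1 count in untreated library 4 and 0 in all others. A count of 0 in the tunicamycin libraries allows up to 0.150 CPM (3 counts), and the exact Poisson 95% interval used above reaches 0.184 CPM, both for counting error only. CXCL2 (ENSG00000081041, chr4:74097040-74099196) had 0, 1, 0, 0 and 0 counts in the untreated and 1, 1, 0, 6 and 0 in the tunicamycin libraries, or 0.0427 CPM (0.00108 to 0.238) and 0.400 CPM (0.173 to 0.788). These intervals overlap as well, and without the filter CXCL2 was not called (edgeR adjusted p = 0.0996). Of its 8 tunicamycin counts, 6 came from library 4, which also held the CDH5 counts. CXCL1, CXCL2 and CXCL3 are close paralogs, so reads may have been split among them.

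NFKBIA and TNFAIP3 encode the feedback inhibitors IkB alpha and A20. NFKBIA (ENSG00000100906, chr14:35401079-35404749) had 554, 585, 654, 568 and 565 normalized counts in the untreated and 553, 539, 516, 361 and 450 in the tunicamycin libraries. The groups met without overlapping, since the lowest untreated and the highest tunicamycin value came from experiment 1 and were almost equal. The means were 585 ± 40.1 and 484 ± 79.1 (SD, n = 5), and the value was lower in 5 of 5 experiments.

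The change of NFKBIA, -0.27 ± 0.11 (95% interval -0.49 to -0.05), missed the threshold (adjusted p = 0.0577 by edgeR), although the exact permutation test of this gene alone gave p = 0.00794. With the experiment as a block in the fit, the change was -0.28 with an edgeR adjusted p = 0.0185. Without the 2 shallowest libraries it was -0.12 (edgeR adjusted p = 0.349). Tunicamycin library 4 gave the lowest value, and leaving it out gave -0.18.

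TNFAIP3 (ENSG00000118503, chr6:137867214-137883314), a ubiquitin-editing enzyme that shuts off NF-kB signalling, fell. Its normalized counts were 123, 103, 81.4, 77.1 and 65.1 in the untreated and 72.6, 57.6, 52.9, 49.5 and 60.5 in the tunicamycin libraries. The groups overlapped through untreated library 5, but each experiment had the lower value with tunicamycin (5 of 5). The change was -0.61 ± 0.18 (edgeR adjusted p = 0.0115, exact permutation p = 0.0159), from 90.0 ± 23.1 to 58.6 ± 8.92 (SD, n = 5). The call was lost without the 2 shallowest libraries (-0.55, edgeR adjusted p = 0.0551). WAKMAR2 has exons on the opposite strand of TNFAIP3, and no strand setting is named for the counting beyond the pipeline's defaults, so its reads may be included.

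ICAM1 (ENSG00000090339, chr19:10271093-10286615), the adhesion molecule that binds leukocyte integrins, had 113, 119, 114, 132 and 105 normalized counts in the untreated and 106, 103, 71.8, 100.3 and 135 in the tunicamycin libraries. The tunicamycin values spread on both sides of the untreated range. The change was -0.20 ± 0.14 (95% interval -0.50 to 0.11, edgeR adjusted p = 0.316), so a fall or a small rise remained possible. ICAM4-AS1 and LIMASI have exons on the opposite strand, with the same limit.

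The remaining members are NF-kB subunits. NFKB1 (ENSG00000109320, chr4:102501330-102617302), the precursor of p50, had 176, 171, 206, 185 and 222 normalized counts in the untreated and 158, 138, 182, 133 and 176 in the tunicamycin libraries. The groups overlapped, with the lower value under tunicamycin in 5 of 5 experiments. The change of -0.29 ± 0.12 missed the threshold (edgeR adjusted p = 0.0696, exact permutation p = 0.0476), and passed it with the experiment as a block (-0.28, edgeR adjusted p = 0.0386). The ratio of NFKBIA to NFKB1 counts, 3.07 ± 0.319 in untreated and 3.10 ± 0.576 in tunicamycin libraries, differed by less than the spread between libraries (SD, n = 5, exact permutation p = 0.929).

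NFKB2 (ENSG00000077150, chr10:102394110-102402524), the precursor of p52, had 47.3, 43.7, 31.5, 42.1 and 55.9 normalized counts in the untreated and 54.9, 37.7, 57.6, 39.8 and 46.4 in the tunicamycin libraries. The groups covered nearly the same range. The change was 0.12 ± 0.19 (95% interval -0.28 to 0.51, edgeR adjusted p = 0.671), and its sign turned to -0.15 with counts thinned to the smallest library.

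RELB (ENSG00000104856, chr19:45001461-45038192), the partner of p52, rose, but not firmly. It had 29.3, 22.3, 35.0, 19.7 and 35.6 normalized counts in the untreated and 54.9, 47.6, 43.5, 31.6 and 32.3 in the tunicamycin libraries. Experiment 5 went the other way and the groups overlapped. The change was 0.60 ± 0.22 (edgeR adjusted p = 0.0411, exact permutation p = 0.0635), higher in 4 of 5 experiments. The call was lost without untreated library 1, 2 or 4 or tunicamycin library 1, 2 or 3 (edgeR adjusted p up to 0.124), with scaling by library size only (0.53, edgeR adjusted p = 0.0801) and with thinned counts (0.59, edgeR adjusted p = 0.197).

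**Figure D2:**
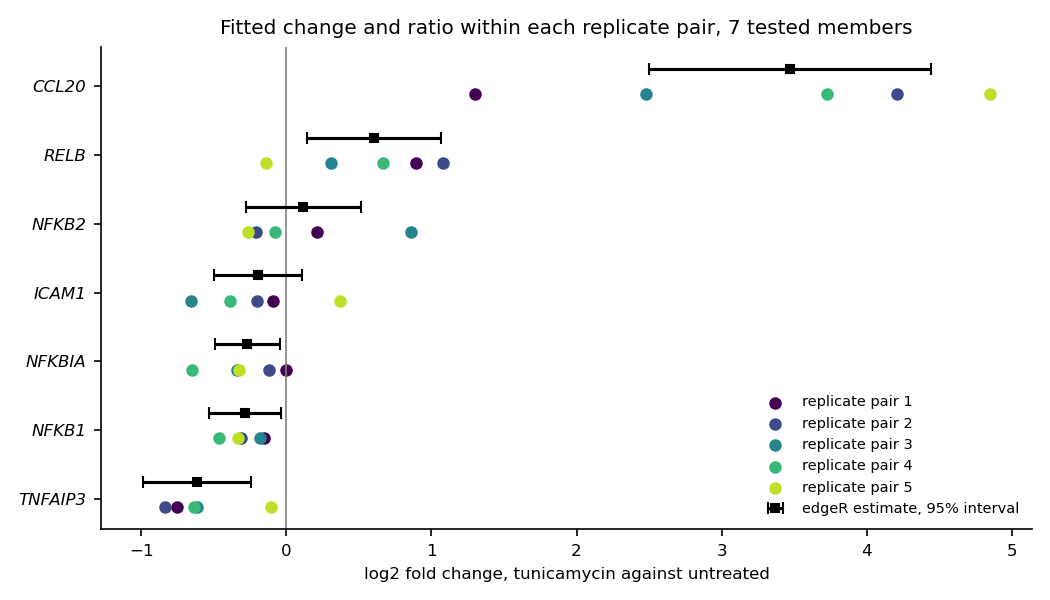
Log2 fold change of the 7 tested members, tunicamycin against untreated (x axis), with 95% intervals as bars and the ratio within each replicate pair (experiment) as points. CCL20 stood at 3.47, and the other 6 lay between -0.61 and 0.60.

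In untreated cells the order of levels was NFKBIA, NFKB1, ICAM1, TNFAIP3, NFKB2, RELB and CCL20. ICAM1 overlapped TNFAIP3, NFKB2 overlapped RELB and RELB overlapped CCL20 between libraries, although RELB was above CCL20 in 5 of 5 libraries. With tunicamycin the mean of CCL20, 134, was above those of ICAM1 (103 ± 22.5), TNFAIP3, NFKB2 and RELB, while in library 1 it was below all of these.

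The rest of the pathway was read from 7 lists that held 130 further genes, of which 129 were in the table, 42 were at 0 in all libraries and 68 were tested. Of the 68, 16 rose and 11 fell, or 23.5% and 16.2%, against 17.6% and 16.6% of all genes tested. The median change over the lists was 0.10. No test of the lists as sets was made.

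Of the 13 tested IKK and upstream kinase genes, 5 rose, and the median change was 0.28. CHUK, which encodes IKK alpha, had 37.9, 29.4, 46.4, 49.3 and 39.6 normalized counts in the untreated and 60.0, 143, 118, 170 and 119 in the tunicamycin libraries. The groups did not overlap, and library 1 was again the lowest with tunicamycin. The change of CHUK was 1.57 ± 0.23 (adjusted p = 2.46e-05 by edgeR). IRAK2, a kinase that acts below the IL-1 receptor, rose by 1.38 ± 0.31, and RIPK2, the kinase below NOD receptors, by 0.67 ± 0.15, a call lost with thinned counts (0.52, edgeR adjusted p = 0.127). TAB2, an adaptor of the kinase TAK1, rose by 0.44 ± 0.12, and RIPK1 by 0.65 ± 0.23. The call of RIPK1 was lost in 5 of 10 fits that left out 1 library and with scaling by library size only. IKBKB, which encodes IKK beta, was at 72.0 and 65.1 (-0.16, edgeR adjusted p = 0.472). IKBKG, the regulatory subunit NEMO, had 3 counts in the untreated and 1 in the tunicamycin libraries, and shares sequence with a pseudogene.

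Both subunits outside the members fell. RELA, or p65, went from 275 ± 21.5 to 223 ± 26.3 (SD, n = 5), a change of -0.30 ± 0.10 (edgeR adjusted p = 0.0303), and REL from 192 ± 20.8 to 154 ± 12.6, a change of -0.31 ± 0.11 (edgeR adjusted p = 0.0339). RELA was lower in 4 of 5 and REL in 5 of 5 experiments, and each lost its call in 6 of 10 fits that left out 1 library. Both also lost it with thinned counts, and REL without the filter and without the 2 shallowest libraries. Of the 5 IkB genes, NFKBIB (IkB beta) rose from 129 ± 20.1 to 188 ± 19.1 (0.54 ± 0.12, edgeR adjusted p = 0.00204). BCL3, a nuclear IkB protein, fell by 0.49 on the log2 scale (SE 0.16, edgeR adjusted p = 0.0272) and lost its call in 6 of those fits.

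Of 15 tested receptors and adaptors, 1 rose and 3 fell. The signalling receptor of IL-1, IL1R1, had 126, 128, 153, 135 and 159 normalized counts in the untreated and 53.2, 67.5, 32.1, 38.5 and 48.4 in the tunicamycin libraries. Every tunicamycin library was below every untreated one, and the change was -1.54 ± 0.17 (edgeR adjusted p = 1.15e-06). Its co-receptor IL1RAP fell by 0.71 on the log2 scale (SE 0.20, edgeR adjusted p = 0.00936, lost with thinned counts and without the 2 shallowest libraries) and the lymphotoxin receptor LTBR by 0.39 (SE 0.11). TRAF3, an adaptor that restrains the non-canonical arm, rose by 0.74 ± 0.17, in 4 of 5 experiments.

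Of 9 tested ubiquitin regulators, 2 rose, and with the experiment as a block 3 rose and 1 fell, with ITCH (0.34, edgeR adjusted p = 0.0312) and OTULIN (FAM105B in the table, -0.42, edgeR adjusted p = 0.0282) added. CYLD, a deubiquitinase that limits NF-kB signalling, went from 35.4 ± 5.35 to 63.1 ± 7.47 normalized counts (0.83 ± 0.17, edgeR adjusted p = 0.000697). TAX1BP1, an adaptor of A20, rose by 0.50 ± 0.11. CYLD and TAX1BP1 thus rose in the same libraries in which TNFAIP3 fell, each in 5 of 5 experiments.

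**Figure D3:**
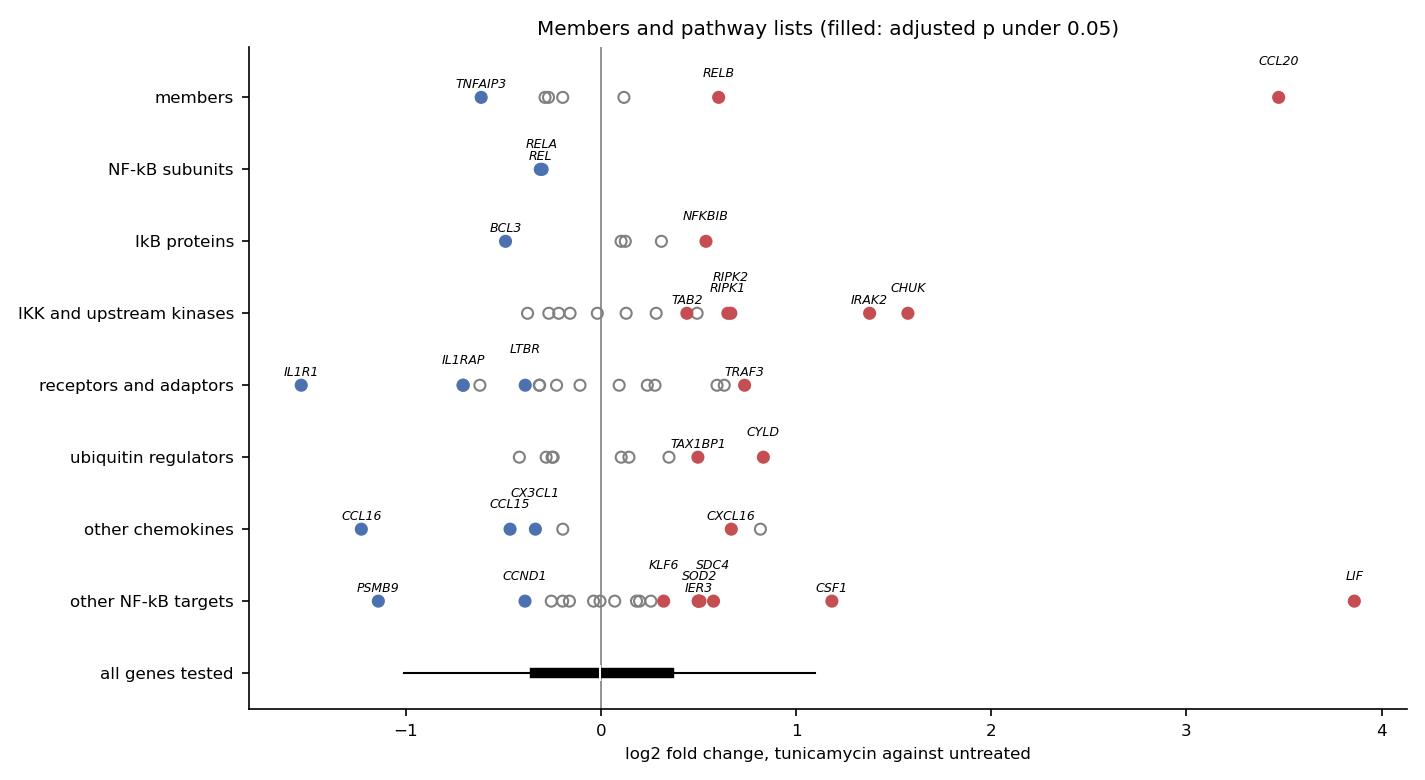
Log2 fold change (x axis) of each tested gene in the 7 pathway lists and the members, with filled points for genes past the threshold of the edgeR test and the range of all genes tested below (thick bar for the interquartile range, thin line for percentiles 5 to 95). CCL20 at 3.47 and LIF at 3.86 stood far from the rest, and IL1R1 at -1.54 was the lowest.

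Most chemokines were not detected: with CCL20 included, 44 chemokine genes were in the table, 29 were at 0 in all 10 libraries and 7 were tested. CCL2 and CXCL10, attractants of monocytes and T cells, were at 0 in all libraries. CXCL3 had 0, 0, 0, 0 and 3 counts in the untreated and 5, 5, 0, 1 and 1 in the tunicamycin libraries. Of the 6 tested besides CCL20, 1 rose and 3 fell. CXCL16, a membrane-bound ligand of CXCR6, went from 150 ± 14.9 to 238 ± 16.7 (0.67 ± 0.10, edgeR adjusted p = 6.30e-05).

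The chemokine CCL16, made mainly in liver, had 218, 185, 188, 188 and 212 normalized counts in the untreated and 75.2, 105, 74.6, 85.2 and 82.7 in the tunicamycin libraries. It was lower in 5 of 5 experiments without overlap between the groups, and the change was -1.23 ± 0.12 (edgeR adjusted p = 3.05e-07). CCL15 fell by 0.47 on the log2 scale (SE 0.14, edgeR adjusted p = 0.0120), a call lost with thinned counts (-0.34, edgeR adjusted p = 0.212). CX3CL1, or fractalkine, fell by 0.34 (SE 0.12, edgeR adjusted p = 0.0357), with its call lost in 6 of 10 fits that left out 1 library and with thinned counts. Chemokines thus moved in both directions, and among the 7 tested CCL20 alone rose by more than 1 on the log2 scale.

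Of 18 tested genes among other NF-kB targets, 6 rose and 2 fell. LIF, a cytokine of the IL-6 family, had 0, 0.892, 2.62, 2.69 and 0 normalized counts in the untreated and 1.69, 22.8, 28.3, 26.1 and 24.2 in the tunicamycin libraries. As with CCL20, tunicamycin library 1 stood apart, here within the untreated range. The fitted change of LIF was 3.86 ± 0.70 (edgeR adjusted p = 0.000263) and rests on 7 counts in all untreated libraries against 86. The macrophage growth factor CSF1 rose by 1.18 ± 0.36 (edgeR adjusted p = 0.0163), a call lost without tunicamycin library 4 (0.89), with thinned counts (0.88, edgeR adjusted p = 0.300) and without the 2 shallowest libraries (0.76, edgeR adjusted p = 0.158).

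The heparan sulphate proteoglycan SDC4 rose by 0.58 ± 0.10, the early response gene IER3 by 0.50 ± 0.10, the mitochondrial superoxide dismutase SOD2 by 0.51 ± 0.12 and the transcription factor KLF6 by 0.32 ± 0.11. The call of KLF6 was lost in 6 of 10 fits that left out 1 library, with scaling by library size only and with thinned counts. CCND1, which encodes cyclin D1, fell by 0.39 on the log2 scale (SE 0.09). The immunoproteasome subunit PSMB9 fell, with a change of -1.14 ± 0.42 (edgeR adjusted p = 0.0406). PSMB9 lost its call in 6 of those fits and with the experiment as a block. The inflammatory cytokines IL6, IL1A and IL1B were at 0 in all 10 libraries, and TNF had 0 counts in the untreated and 4 in the tunicamycin libraries.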

How the data were processed

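RNA from 5 untreated and 5 tunicamycin-treated HepG2 cultures was sequenced as 3′ mRNA ends. The authors mapped reads to hg19 with Ensembl transcripts through the nf-core RNA-Seq pipeline at its default settings and deposited raw counts per gene. The aligner and the strand setting are not named beyond those defaults. All sample columns were used.

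Genes were filtered with filterByExpr (minimum count 2, minimum total 10), as in the study's methods, which tested with DESeq2. Counts were scaled by TMM and tested with edgeR 4.0.16 (R 4.3.3, quasi-likelihood, condition only, Benjamini-Hochberg adjustment, threshold 0.05), and the procedure was tested on simulated data. Ratios within experiments used a pseudocount of 0.5. Bounds on counts of 0 used 3 counts.

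Replicate numbers were taken to mark the separate days and so to pair the libraries, which the sample titles do not state. The main fit and the exact permutation tests did not use the pairs, and only the replicate block, an alternative, did. Deviations of paired libraries from their group means correlated at 0.322, 0.0141, 0.0397, 0.130 and 0.103 over 10736 genes.

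The members and lists were chosen with earlier results of these data known. Named genes are all members, the list genes past the threshold (up to 6 per direction and list) and 12 chosen pathway genes, with HSPA5, DDIT3 and HERPUD1 as the check of treatment. CDH5, LYZ, CD68, ACTA2, BCL2A1 and the genes that only the replicate block called were chosen after their values were seen. Positions are from GRCh38 (GENCODE, by Ensembl identifier) and promoters from RefSeq on GRCh38.p14. No hg19 coordinate is given.

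Alternatives were DESeq2 1.42.0, DESeq2 size factors, library size only, no filter, filterByExpr's default minimums, the replicate block, counts thinned to 2234682 per library, and each library left out. Leaving out the 2 shallowest libraries was chosen after seeing the data.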

Additional observations from a re-analysis of the deposited data

Results flagged for a closer look

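In 90 groups of 5 libraries, 9 had 1 library far from the other 4 by Dixon's test at 95%. Chance would flag about 4.5 of continuous values, but 5 of the 9 were 1 library with counts against 4 at 0, which the test always flags, so that rate does not apply to them. Among the members these were low counts. IL8 was at 4.30 normalized counts in untreated library 1 and at 0 in the other untreated libraries. CXCL1 was at 0.896 in untreated library 4, where the others were at 0, and CXCL2 was at 0.892 in untreated library 2, where the others were at 0. In tunicamycin library 4, CXCL2 was at 8.24 while the others were at 0 to 0.992.

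Among the pathway genes, LIF was at 1.69 in tunicamycin library 1 against 22.8 to 28.3 in the others. TRAF3 was at 46.4 in tunicamycin library 5, the shallowest, against 79.4 to 83.1. IKBKB was at 92.5 in untreated library 5 against 64.2 to 70.6. IKBKG was at 1.37 in tunicamycin library 4 and CXCL3 at 3.05 in untreated library 5, with 0 in the other libraries of those groups.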

How the results depend on the processing

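Of the 7 members tested, 3 differed, and the count ranged from 2 to 3 when 1 library was left out, though not always with the same members. It was 4 with library size only and with the default minimums. It was 5 with the replicate block, where NFKBIA (-0.28, adjusted p = 0.0185 by edgeR) and NFKB1 (-0.28, adjusted p = 0.0386) passed, and the block changed no other member's call. With the block included, NFKBIA passed in 6 of 18 alternatives and NFKB1 in 3 of 18. The change of CCL20 stayed past the threshold in 18 of 18 alternatives, from 2.90 to 3.78. That of NFKB2 turned to -0.15 with thinned counts, and the cause was not tested. The pathway lists gave 27 genes, 17 with thinned counts, where fewer counts enter, 20 to 26 when 1 library was left out, and 32 with the block, which added IRAK4, TAB3, TRAF2, OTULIN, ITCH and IL32 and lost PSMB9. Of the 27, 15 stayed past the threshold in all alternatives, LIF did in all but the default minimums, where it was not tested, and 0 reversed. Over all genes 4353 differed (51.4% higher), against 4344 (40.8% higher) with library size only. The calls over all genes also rose with the block, to 4811 of 12733 tested, and fell with thinned counts, to 3227 of 12185. They ranged from 3806 to 4488 when 1 library was left out. The filter left out IL8, CXCL1 and CXCL2, and without it their adjusted p-values by edgeR were 0.316, 0.468 and 0.0996. Depth of 2234682 to 5029864 counts limits genes this low.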

Other observations

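BCL2A1, a survival factor of the BCL2 family on the list of other NF-kB targets, was picked with its values in view. It had 0, 1, 0, 0 and 0 counts in the untreated and 2, 1, 1, 21 and 20 counts in the tunicamycin libraries, and did not pass the filter on low counts. In the fit without that filter BCL2A1 changed by 5.36 (edgeR adjusted p = 0.000187). Its counts were high in the same tunicamycin libraries, 4 and 5, in which CCL20 was highest and totals were lowest.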
